A study of Mus musculus with 8 samples.

Results

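OP9 stromal cells that had been kept together with pre-B cells of the line 230-238 were compared with OP9 cells cultured without them, and the comparison was the pair of array groups that carry these labels, 4 of the 8 arrays of the series. Both groups are mouse bone marrow stroma labelled with the strain B6C3F1, and each holds 2 arrays that the labels call biological replicates. OP9 is a stromal line from marrow of op/op mice, which lack functional M-CSF, and the growth notes in the labels name OP9 Strawberry, which the study made by bringing in the red fluorescent protein mStrawberry with a retrovirus. The labels of the single arrays say only OP9, so it is not settled that the arrays without pre-B cells hold the transduced line. 230-238 is a transformed pre-B cell line. The transduced cells were sorted for high red fluorescence and are thus a pool and not a clone. The study separated stroma from lymphoid cells by red fluorescence and forward scatter after trypsin and EDTA, and its text describes the cells without pre-B cells as kept in conditioned medium, where the labels name only an OP9 culture. The sources used here do not state whether both groups were sorted, so contact with the pre-B cells, medium, handling and transduction cannot be told apart. The NIH3T3 fibroblasts and MC3T3 osteoblasts on the other 4 arrays were not compared. They entered the estimate of the spread, the choice of probe set for each gene and the filter on level.

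Marrow stroma feeds, holds and instructs developing B-lymphocytes. It secretes IL-7 and CXCL12, displays KIT ligand, and lays down a matrix that binds growth factors, and it can in turn receive signals from the lymphoid cells through cytokine receptors and cell contact. The question was which functions of the stroma, other than chemokines, the interferon response, the NF-kB pathway and fat cell genes, differed when pre-B cells were present.

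Of 10084 genes tested, 273 were called higher in co-culture, which is 2.71%, and 299 were called lower, which is 2.97%. A call was an adjusted p below 0.05 in limma together with a difference of at least 2-fold. The 4 lists set aside held 59 of the genes that rose and 15 of those that fell. Among their tested members 54.9% of 71 interferon, 50.0% of 12 chemokine and 38.7% of 31 NF-kB genes rose and 0 fell. Of 43 fat cell genes 34.9% fell and 2 rose. Outside the lists were 214 of the rises (78.4%) and 284 of the falls (95.0%), where outside means only that a gene was not listed. At 4-fold or more there were 69 genes higher and 44 lower, of which 42 and 36 were outside the 4 lists. All 572 genes at 2-fold or more had an adjusted p below 0.05 in limma, so the fold limit alone set which genes were called. In none of the called genes did the values of the 2 groups overlap, which is no separate support, because a 2-fold limit with close replicates leaves little room for overlap. Beside 213 of the 572 called genes another probe set of the same gene was tested, and for 212 of them all further probe sets had the same sign. Agreement at the 2-fold limit was lower, since 155 of the 213 had at least 1 other probe set that differed 2-fold the same way. With the mean of probe sets 215 of the 273 rises and 206 of the 299 falls were still called. Array medians ranged from 42.63 to 43.67 intensity units, and the median absolute difference of a gene between the 2 arrays of a group was 0.069 on the log2 scale in both groups. Over all genes tested the median log2 difference was -0.053. Without the fold limit 1674 of the 10084 genes were higher and 2640 lower at an adjusted p below 0.05 in limma. At an unadjusted p below 0.05 these counts can only be larger. Counts of list members at an unadjusted p, given below, are to be read beside them and do not by themselves mark a shift of a list. The p-values measure the spread between arrays of cultures that are replicates by label, and in such pooled RNA fewer cells of a type and less RNA per cell cannot be told apart.

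**Figure D1:**
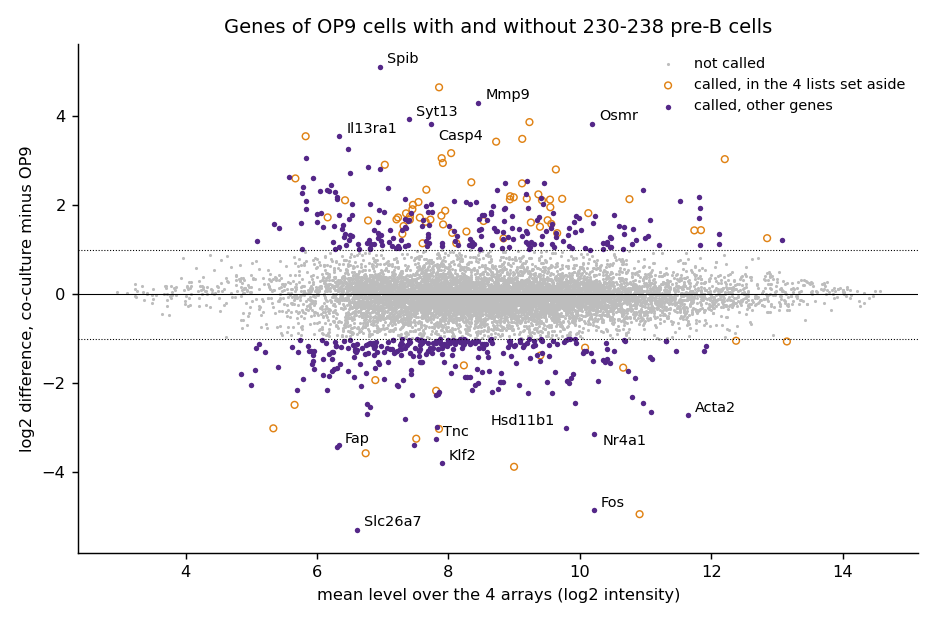
Log2 difference between OP9 cells with and without 230-238 cells against the mean log2 intensity over the 4 arrays, with 1 point per gene tested. Orange rings are called genes of the 4 lists set aside, purple dots are the other called genes, grey dots are genes not called, and dotted lines mark a difference of 2-fold; Spib and Mmp9 lead the other genes that rose, and Slc26a7 and Fos those that fell.

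The labelled tissue and the presence of other cells were checked on marker genes. The summed intensity of 23 marrow stroma markers was 80245 to 80662 in co-culture and 80100 to 82440 in OP9 cells, with 0 members called higher and 1 lower. Of 23 pre-B cell markers 20 stayed below 100 on all 4 arrays, and the sum of the 23 was 2609 to 2823 in co-culture and 2911 to 3132 without. It was 1619 to 1652 in NIH3T3 and 948 to 1024 in MC3T3 cells. In each of the 2 OP9 groups 3 markers reached 100 on both arrays. Such a sum cannot register a small amount of pre-B RNA, so it does not measure purity. Of the 6 pre-B markers tested 5 had a positive and 1 a negative log2 difference, and 0 were called. Some lymphoid transcripts, chosen after their values were seen, were higher at low levels. None of the next 3 reached the level needed for a test. Vpreb1, a surrogate light chain gene of pre-B cells, gave 77.7 and 76 in co-culture and 25.8 and 21.6 in OP9 cells. For Pou2af1, a B-cell coactivator, the values were 36 and 33.8 against 8.1 and 7.9. The pan-leukocyte phosphatase Ptprc, the CD45 gene, read 34.6 and 31.1 against 8.9 and 8.6. Over 22 leukocyte markers the sum was 2568 to 2606 in co-culture and 1256 to 1277 without. It was 1406 to 1612 in NIH3T3 and 4606 to 4934 in MC3T3 cells, so a high sum does not by itself mark leukocyte RNA. The 4 markers Spib, Coro1a, Cd74 and Arhgdib were called higher. Of these Spib differed most, as given next, and Cd74, a class II chaperone, read 229 and 223 against 49.6 and 62.3. The part of RNA from remaining pre-B cells in the results below was not tested.

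The genes outside the 4 lists with the largest rises had diverse roles. Spib encodes an ETS family transcription factor best known from lymphoid cells. Its probe set gave 723 and 729.6 in co-culture and 19.8 and 22.6 in OP9 cells, a rise of 34.3-fold (log2 difference 5.10, SE 0.30, adjusted p = 1.89e-05 in limma). This was the largest rise outside the lists, and how much of it came from remaining pre-B cells was not tested. Mmp9, the gelatinase B gene, was at 1505 and 1622 against 81 and 77.3, 19.8-fold. Syt13, of the synaptotagmin family of membrane traffic proteins, stood at 599 and 724 against 42.6 and 43.7. Casp4, an inflammatory caspase that responds to cytosolic lipopolysaccharide, was at 800.0 and 802 against 62 and 52.1. The 4 genes Spib, Mmp9, Syt13 and Casp4 were higher on both co-culture arrays by factors of 14.1 to 34.3. Casp12, another inflammatory caspase but not among the 12 largest rises, was at 934 and 979.6 against 185 and 194.

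Among the 12 largest rises were also Trp63, Zfpm2, Gas7, Plac8 and Dpt. Trp63, of the p53 family, gave 297 and 363 with pre-B cells and 43.4 and 50.6 without, and Zfpm2, a partner of GATA factors, gave 289 and 299.8 against 43.8 and 37.5. Gas7, a growth arrest gene acting on actin, was 9.56-fold higher, Plac8 6.58-fold, and Dpt, the matrix protein dermatopontin, 6.25-fold. The co-culture values of Dpt, 135 and 104, lay close to the minimum level for a test.

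In the other direction the largest fall of all genes outside the lists was that of Slc26a7, an anion exchanger. It was at 594 and 625 in OP9 cells and at 17 and 14.3 in co-culture, near the lowest values of the arrays, 39.1-fold lower (log2 difference -5.29, SE 0.092, adjusted p = 1.75e-07 in limma). A fold against such low values depends on the background signal. The transcription factor genes Fos, Klf2 and Nr4a1 came next with the surface and matrix genes Fap, Adam12, Npnt, Tnc, Aspn and Postn, the steroid enzyme Hsd11b1 and the smooth muscle actin gene Acta2, all of which are described with their functions below.

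**Figure D2:**
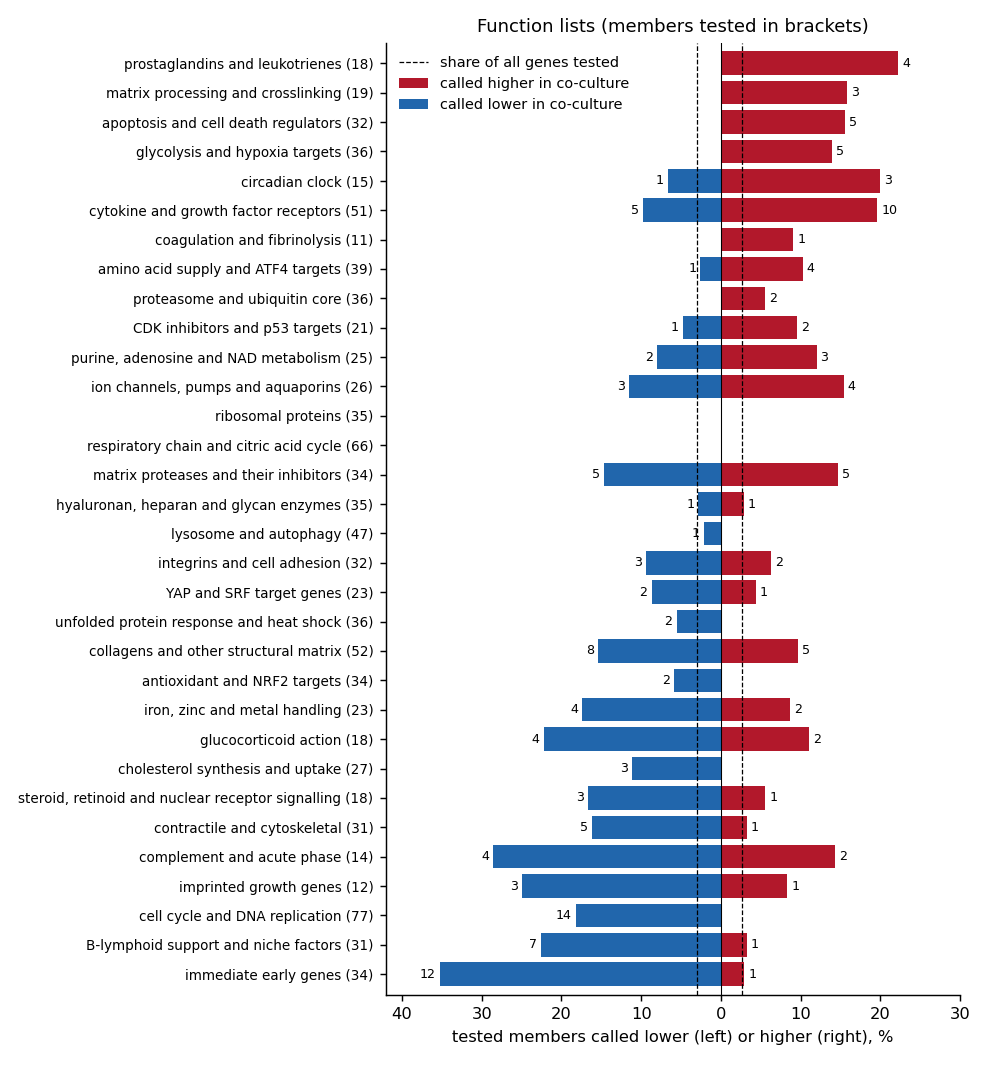
Share of the tested members of 32 function lists that were called higher (red, to the right) or lower (blue, to the left) in co-culture, in percent, with the number of called members at each bar and the number tested in brackets. Dashed lines mark the shares over all genes tested, 2.71 and 2.97%; immediate early genes had the highest share called lower, and prostaglandin genes the highest share called higher.

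The function list with the highest share of falls was that of immediate early genes, which many cells switch on within minutes of a stimulus and switch off again. Of 34 tested members 12 fell (35.3%) and 1 rose, with a median log2 difference of -0.26 against -0.053 over all genes. Fos, a subunit of AP-1, was at 6401 and 6382 in OP9 cells and at 209 and 233 in co-culture, 29-fold lower (log2 difference -4.86, SE 0.14, adjusted p = 7.54e-07 in limma). Both OP9 arrays were high, and the 2 co-culture arrays lay between the means of 140.4 in NIH3T3 and 264.6 in MC3T3 cells. Egr1, a zinc finger factor, fell from 5314 and 5624 to 855 and 882. Nr4a1, an orphan nuclear receptor, went from 3487 and 3561 to 399 and 401, and Klf2, a Krüppel-like factor, from 847 and 932 to 60.4 and 67.8. For all 4 of these genes the gap between groups was several times any gap between replicates. Among the other members that fell were Ier2 (4.98-fold), Zfp36, which destabilises AU-rich mRNAs (3.69-fold), Fosb (4.16-fold) and Egr2 (3.36-fold), chosen after their values were seen.

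Other subunits of AP-1 did not pass the 2-fold limit. Jun gave 1482 and 1424 in co-culture and 1759 and 1938 in OP9 cells, and Junb gave 718 and 749 against 809 and 848. Myc, which drives growth and ribosome production, moved the other way, with 538 and 599.9 in co-culture and 231 and 228 in OP9 cells, 2.48-fold higher (adjusted p = 2.15e-05 in limma). The count of 12 falls was the same when any 1 array was left out and under both other scalings.

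Cell cycle genes were called in 1 direction, with moderate folds. Of 77 tested members 14 fell, 18.2%, and 0 rose, while 55 were lower and 3 higher at an unadjusted p below 0.05 in limma. The median log2 difference of the list was -0.57. Kif20a, a kinesin of cytokinesis, gave 146 and 168 with pre-B cells and 495 and 465 without, 3.06-fold lower. Bub1, a kinase of the spindle checkpoint, stood at 76.9 and 77.1 against 195 and 183, and Cenpf, a kinetochore protein, at 122 and 118 against 299 and 284. Ect2, a gene needed for cytokinesis, was at 53.9 and 70.1 against 146 and 156. The 4 genes were lower on both co-culture arrays by factors of 2.43 to 3.06.

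The 14 genes that fell are known for roles in mitosis and cytokinesis. When the list was divided by function after the values had been seen, the 26 genes of DNA replication had a median log2 difference of -0.25 and 0 calls, with a range from -0.74 to 0.25, and the other 51 had a median of -0.81. Pcna, the sliding clamp, gave 2148 and 2167 against 3058 and 2872, Mcm6 of the replicative helicase 911 and 867 against 900.0 and 961, and neither was called. Mki67, the proliferation marker, was at 263 and 267 against 493 and 472, 1.82-fold lower and so within the 2-fold limit. With the mean of all probe sets of a gene the count of 14 went down to 7, and Cenpf was then at -0.64 on the log2 scale. Under quantile normalization it was 10.

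Promoters of the mitotic genes are known to carry CCAAT boxes, bound by NF-Y, and the cell cycle homology region, through which the DREAM complex can silence them. RefSeq windows from 250 bases before to 50 after the transcript start were at hand for 12 of the 14 genes that fell. The letters TTTGAA, the core of the homology region, were found on either strand in 9 of the 12 (75.0%), in 44.4% of the 63 tested cell cycle genes with a window, in 13.9% of all tested genes with one and in 20.2% of all 27025 genes with one. CCAAT was found in 9 of the 12 (75.0%), in 68.3% of the tested cell cycle genes and in 43.1% of all tested genes with a window, so that its share in the genes that fell was near that of their list. The 28 cell cycle genes with TTTGAA had a median log2 difference of -0.88 and the 35 without had -0.32. The motifs were chosen after the calls were known, and a match is a description of letters and not a binding site. The stretches of 4 genes that fell are printed from 120 bases before to 25 bases after the start, because each holds both motifs. They run 5′ to 3′ on the strand of the gene in GRCm38.p6. Capitals mark TTTGAA and CCAAT, read on either strand. The stretches lie at chr9:70421530-70421674 on the minus strand (Ccnb2), chr3:27153830-27153974 on the minus strand (Ect2), chr1:189688062-189688206 on the minus strand (Cenpf) and chr7:80294331-80294475 on the plus strand (Prc1).
Ccnb2: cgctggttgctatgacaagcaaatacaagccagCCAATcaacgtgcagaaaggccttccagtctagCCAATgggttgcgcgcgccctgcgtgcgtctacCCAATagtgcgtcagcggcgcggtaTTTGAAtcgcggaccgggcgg
Ect2: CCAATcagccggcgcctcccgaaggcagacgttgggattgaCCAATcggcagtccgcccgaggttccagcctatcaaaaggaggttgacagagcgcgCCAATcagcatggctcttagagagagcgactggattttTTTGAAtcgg
Cenpf: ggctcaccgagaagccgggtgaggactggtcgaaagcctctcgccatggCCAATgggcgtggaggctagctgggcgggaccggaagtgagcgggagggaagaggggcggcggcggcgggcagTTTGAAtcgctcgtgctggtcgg
Prc1: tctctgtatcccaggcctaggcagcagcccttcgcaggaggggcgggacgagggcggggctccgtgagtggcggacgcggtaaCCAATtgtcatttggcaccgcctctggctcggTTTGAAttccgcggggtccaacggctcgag

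In Ccnb2, the cyclin B2 gene, 3 CCAAT boxes precede the TTTGAA that follows the start. Its level was 309 and 329.8 in co-culture and 754 and 702 in OP9 cells, 2.28-fold lower, and Prc1, a bundler of spindle microtubules, was at 251 and 251 against 568 and 539. Both were chosen after their values were seen. Immediate early genes were searched in the same way for the CArG box of serum response factor, which stood in 3 of the 10 members that fell and had a window, in 11.5% of the 26 tested members with one and in 1.55% of all tested genes with one, and for TGACGTCA, the cyclic AMP response element, which stood in 2 of the 10, in 15.4% of the 26 tested immediate early genes with a window and in 3.57% of all tested genes.

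**Figure D3:**
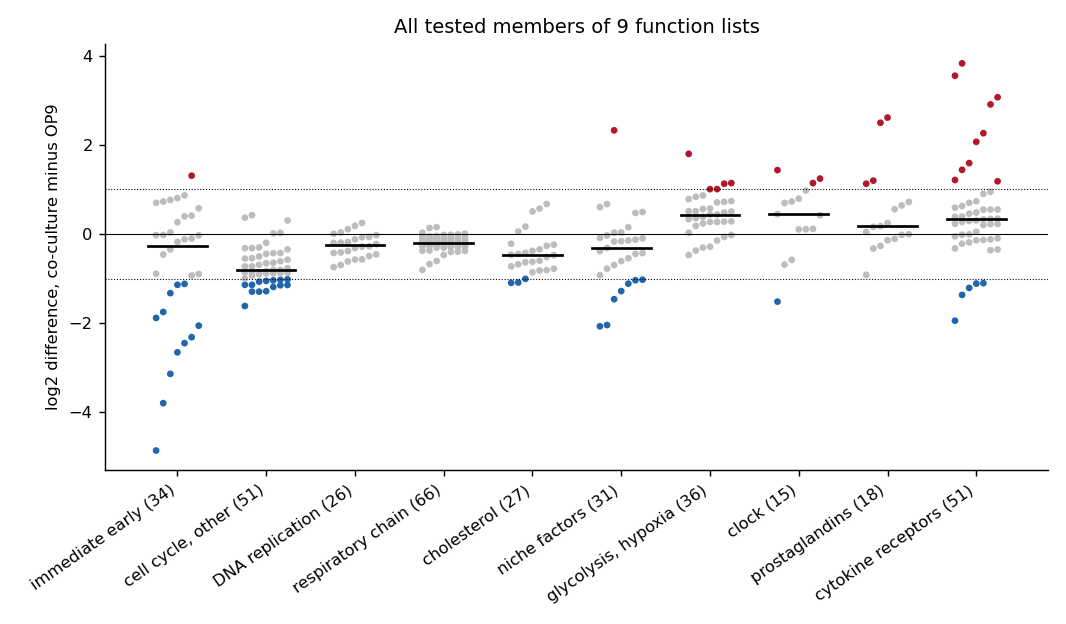
Log2 difference between OP9 cells with and without 230-238 cells of every tested member of 9 function lists, with 1 point per gene, the cell cycle list divided into DNA replication and other genes, and the number of members in brackets. Red and blue points were called higher and lower, grey points were not called, bars are medians and dotted lines mark 2-fold; the medians of the 2 cell cycle columns are -0.81 and -0.25.

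Receptors for cytokines and growth factors were called in both directions. Of 51 tested, 10 rose (19.6%) and 5 fell (9.80%), and their median log2 difference was 0.33. The rises were led by Osmr, the specific chain of the oncostatin M receptor, which was at 4422 and 4339.8 in co-culture and at 334 and 285 in OP9 cells, 14.2-fold (log2 difference 3.83, SE 0.12, adjusted p = 1.15e-06 in limma). Lifr, the receptor chain for LIF that also takes part in oncostatin M binding, was at 1205 and 1329.5 against 262 and 266. Il6st encodes gp130, the signalling chain that both of them need, and read 2852 and 2772 against 1187 and 1243. All 3 chains of this receptor system were thus higher on both co-culture arrays, by 14.2-, 4.79- and 2.31-fold. Il6st was chosen after its values were seen.

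Il13ra1, which with the IL-4 receptor chain forms the receptor for IL-13, was at 266 and 288 against 26.2 and 21.4, 11.7-fold higher. Il4ra itself gave 216 and 195 against 91.8 and 89. Csf2rb, the common beta chain for GM-CSF, IL-3 and IL-5, was at 163 and 169 against 22.3 and 17.5, where the OP9 values are near the bottom of the scale. Il1r1, the signalling receptor for IL-1, was at 2124 and 1971 against 702 and 657, and Agtr1a, an angiotensin receptor, was 2.71-fold higher. With the mean of all probe sets of a gene the log2 differences of Il4ra and Il1r1 were 0.84 and 0.76, which is no longer a call.

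The receptors that fell were receptor tyrosine kinases apart from the TWEAK receptor Tnfrsf12a, which stood at 396 and 418 against 1021 and 1079. Fgfr2, a fibroblast growth factor receptor, was at 1847 and 1679 in OP9 cells and at 462 and 453 in co-culture, 3.85-fold lower (adjusted p = 3.89e-06 in limma). Met, the receptor for hepatocyte growth factor, was 2.16-fold lower, and Mertk 2.31-fold. With the mean of its probe sets Met was at -0.96 and not called. The call of Mertk was lost without OP9 replicate 1 (log2 difference -0.88) and without co-culture replicate 1 (-0.98). Fgfr3 fell as well, with 76.5 and 80.5 against 184 and 155, and at -0.98 its call was lost without OP9 replicate 1, which left 3 of the 5 falls.

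Among factors that support B-lymphoid cells and their niche, 7 of 31 tested members fell (22.6%) and 1 rose, with a median log2 difference of -0.31. Il7, the cytokine on which mouse B-cell progenitors depend, was at 76.4 and 70.8 in co-culture and at 325 and 283 in OP9 cells, 4.12-fold lower (log2 difference -2.04, SE 0.095, adjusted p = 6.39e-06 in limma). Igf1 was at 1373 and 1259.5 against 3627 and 3623, Ptn, the growth factor pleiotrophin, at 1765 and 1870.3 against 4725 and 4126, and Sfrp2, a secreted modulator of Wnt signals, at 68.5 and 78.3 against 307 and 309. All 4 secreted factors were lower on both co-culture arrays.

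The remaining niche factors gave a mixed picture. Dll1, Bmp4 and Igf2 also fell, by 2.05-, 2.04- and 2.16-fold, but each lost its call when 1 array was left out: Dll1 without OP9 replicate 2 (-0.93), Bmp4 without co-culture replicate 2 (-0.95), and Igf2 without OP9 replicate 2 (-0.997) or co-culture replicate 1 (-0.97). The member that rose was Ccn3, a matricellular protein also called Nov, with 149 and 147 against 32.2 and 27. Kitl gave 4209 and 4151 with pre-B cells and 4578 and 4529 without, Cxcl12 18390.4 and 18257 against 19989 and 21062, and Vcam1 3224 and 3214 against 3131 and 3149. For these 3 the log2 differences were -0.12, -0.16 and 0.036, and none was called.

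**Figure D4:**
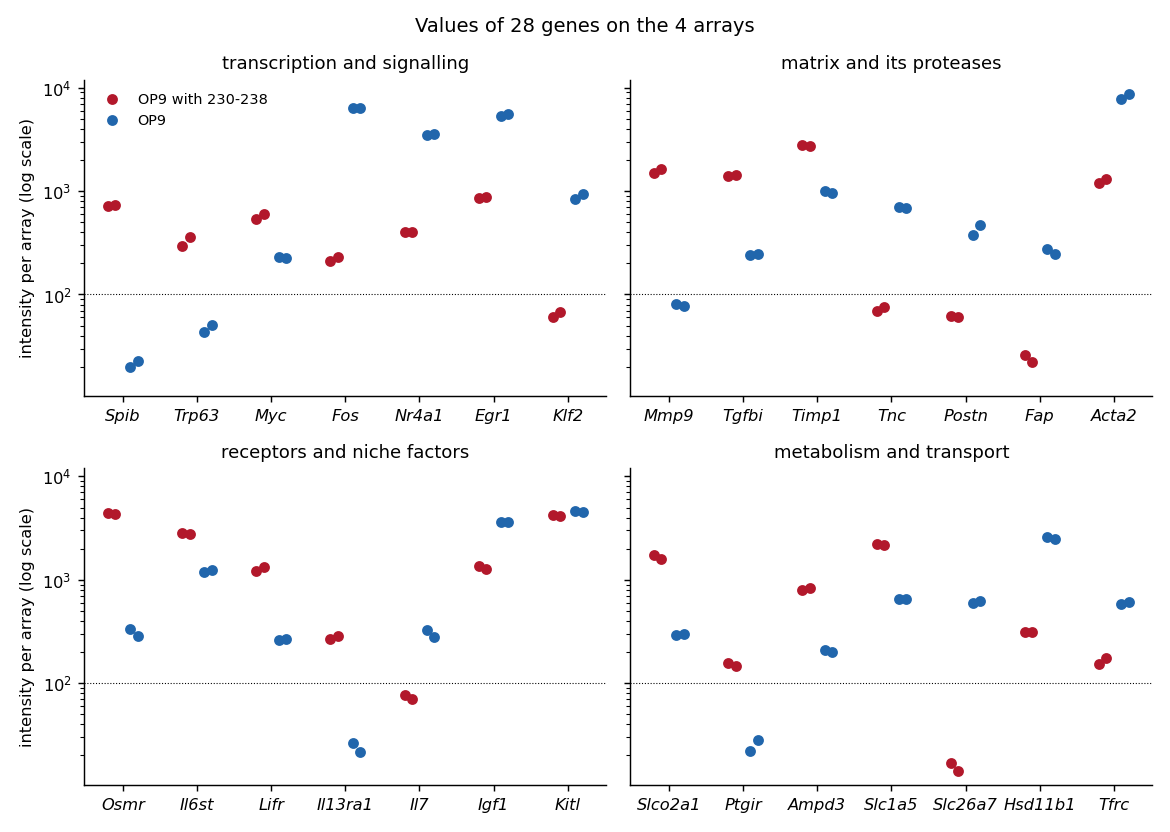
Intensity on each of the 4 arrays, on a log scale, of selected genes in 4 groups of function, with 2 red points for OP9 cells with 230-238 cells and 2 blue points for OP9 cells. The dotted line marks the minimum level of 100; the groups do not overlap in any gene drawn, and the smallest gap is that of Kitl, which was not called.

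Matrix genes were called in both directions. Of 52 tested collagens and other structural proteins 5 rose (9.62%) and 8 fell (15.4%), with a median log2 difference of 0.14. Over all genes tested 2.71% rose and 2.97% fell. The rises were 3 under median scaling and 2 with the mean of probe sets. Tnc, the anti-adhesive glycoprotein tenascin C, was at 699 and 685 in OP9 cells and 68.6 and 76.2 in co-culture. Postn, periostin, fell from 379 and 475 to 62.1 and 60.4, Npnt, the integrin ligand nephronectin, from 525 and 629 to 46.8 and 64.7, and Aspn, the small proteoglycan asporin, from 622 and 649 to 79.1 and 82.9. The falls of these 4 genes were 9.56-, 6.93-, 10.4- and 7.85-fold. In co-culture all of them lay below 100.

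On the rising side Tgfbi, a TGF-beta induced adhesion protein, was at 1393 and 1432 against 240.0 and 248, 5.79-fold, and Ltbp2, which binds microfibrils, at 3252 and 3391 against 1387 and 1296. Dcn, the proteoglycan decorin, gave 156 and 187 against 51.2 and 48.9, and with the mean of its probe sets its log2 difference was 0.88 and no longer a call. Collagen chains among the falls were Col8a1, Col12a1 and the basement membrane chain Col4a1, with 967 and 937 against 2283 and 2298, chosen after their values were seen. Of 19 enzymes that process and crosslink matrix 3 rose (15.8%) and 0 fell (11 higher and 3 lower at an unadjusted p below 0.05 in limma). P4ha2, a prolyl hydroxylase of collagen, was at 1792 and 1818 against 542 and 526, and Tgm2, the tissue transglutaminase, at 1872 and 1813 against 539 and 589.

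Proteases of the matrix divided evenly, with 5 rises and 5 falls among 34 tested (14.7% each way), or 3 rises with the mean of probe sets. Beside Mmp9, whose values are given above, Timp1, an inhibitor of metalloproteinases, was at 2789.8 and 2754 against 994 and 948, 2.85-fold higher. Adam8, a sheddase, was 2.72-fold higher. Fap, the fibroblast activation protein that marks activated fibroblasts, was at 273 and 246 in OP9 cells and at 26.2 and 22.4 in co-culture, 10.7-fold lower (adjusted p = 1.18e-06 in limma). Adam12, another marker of activated mesenchyme, fell from 306 and 223 to 28.3 and 21.7, and the collagenase gene Mmp13 from 1869 and 2119.8 to 665 and 741.

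Of 31 tested contractile and cytoskeletal genes 5 fell (16.1%) and 1 rose (3.23%). Acta2, smooth muscle alpha actin, was among the most abundant of these and went from 7844 and 8666 in OP9 cells to 1185 and 1317 in co-culture, 6.6-fold (log2 difference -2.72, SE 0.12, adjusted p = 5.01e-06 in limma). Its probe set is of a kind that can bind related transcripts, as are those of 55 called genes in all. Actg2, the enteric smooth muscle actin, was at 37.1 and 49.1 against 289 and 265, the myosin light chain gene Myl9 at 111 and 96.1 against 466 and 521, and Tagln, transgelin, at 108 and 123 against 312 and 348. The 4 genes were lower on both co-culture arrays by factors of 2.87 to 6.6. Smtn and Mylk, also of smooth muscle, gave log2 differences of 0.71 and 0.17 and were not called. Pdlim4, an actin-associated LIM protein, rose from 38.6 and 35.8 to 176 and 163.

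Handling of glucocorticoids was marked by Hsd11b1, the enzyme that regenerates active corticosterone inside cells. It was at 2578 and 2481 in OP9 cells and at 315 and 312 in co-culture, 8.07-fold lower (log2 difference -3.01, SE 0.14, adjusted p = 5.77e-06 in limma). The receptor gene Nr3c1 was at 1078 and 1020.0 with pre-B cells and 958 and 991 without and was not called. Of 18 tested members of the list 2 rose (11.1%) and 4 fell (22.2%), with a median log2 difference of 0.06.

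Genes that glucocorticoids are known to induce did not move one way. The kinase gene Sgk1 was 2.25-fold higher and Cebpd, a transcription factor gene also in the fat cell list, 2.59-fold higher, while Dusp1, a phosphatase that also stands among the immediate early genes, was 2.51-fold lower, Lcn2, the siderophore binder, 3.44-fold and Sult1a1, a sulfotransferase, 2.55-fold lower. With the mean of its probe sets Cebpd was at 0.66 on the log2 scale and no longer called. The other 12 were not called: Mt1 (-0.95), Pdk4 (-0.95), Klf9 (-0.54), Fkbp5 (-0.30), Tsc22d3 (0.058), Glul (0.065), Nr3c1 (0.11), Mt2 (0.16), Pnmt (0.35), Angptl4 (0.55), Errfi1 (0.70) and Per1 (0.73), each as a log2 difference. Fkbp5 and Tsc22d3, which respond sharply to the hormone in many cells, gave 104 and 105 against 115 and 144 for the former and 1027 and 919.8 against 906 and 963 for the latter.

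Prostaglandins are lipid signals made from arachidonic acid, and here the genes called were receptors, a carrier and a reductase. Of 18 tested genes 4 rose (22.2%) and 0 fell (7 higher and 3 lower at an unadjusted p below 0.05 in limma). Ptgir, the prostacyclin receptor, was at 157 and 146 in co-culture and at 22 and 28 in OP9 cells, 6.11-fold (log2 difference 2.61, SE 0.12, adjusted p = 6.35e-06 in limma). Slco2a1, the carrier that takes prostaglandins back into cells, was at 1733 and 1606 against 295 and 297, 5.64-fold. Ptger4, a receptor for PGE2, was at 405 and 429 against 184 and 179.6. Both receptors and the carrier were higher on both co-culture arrays.

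Akr1b8, an aldo-keto reductase, was the fourth gene that rose, at 2.19-fold. No other gene of the list was called. Ptges, a PGE synthase, gave 1139 and 1111 against 724 and 721, and Ptgs2, the inducible cyclooxygenase, gave 41.5 and 37.6 against 66.8 and 83.2, below 100 on all 4 arrays. Without OP9 replicate 1, Ptgs2 was called lower, the 1 fall in this list under that omission. The log2 differences of the others were -0.33 for Ptges2, -0.27 for Cbr2, -0.14 for Pla2g4a, -0.11 for Ltc4s, -0.018 for Lta4h, -0.006 for Abcc4, 0.044 for Cbr1, 0.16 for Ptgis, 0.18 for Ptgds, 0.24 for Tbxa2r, 0.56 for Pla2g15 and 0.72 for Ptgfr.

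Glycolysis feeds cells without oxygen, and low oxygen induces many of its genes. Of 36 tested glycolysis and hypoxia genes 5 rose (13.9%) and 0 fell (27 higher and 3 lower at an unadjusted p below 0.05 in limma), and the median log2 difference was 0.44. Adm, the vasodilator peptide adrenomedullin, was at 786 and 719 in co-culture and at 221 and 211 in OP9 cells, 3.48-fold. Bhlhe40, a transcriptional repressor, was at 1971 and 1911 against 863 and 897, and Pdk1, which keeps pyruvate from mitochondria, at 870.1 and 890.3 against 433 and 374. These rises were 2.21- and 2.19-fold, and Pdk1 was at 0.90 on the log2 scale with the mean of its probe sets. Without OP9 replicate 1 there were 3 rises in the list in place of 5, since Eno2 and Vegfa, both close to 2-fold, were then at 0.98 and 0.99, and there were also 3 under median scaling and with the mean of probe sets. Of 66 genes of the respiratory chain and citric acid cycle 0 were called. Of these 66 genes 37 were lower and 0 higher at an unadjusted p below 0.05 in limma, and 62 had a difference below 0. Over all 10084 genes 2640 were lower and 1674 higher even at an adjusted p below 0.05 in limma. The median of the respiratory list was -0.19, and its largest fall was that of Idh3a with 1.75-fold. Ribosomal protein genes gave 0 calls among 35, while 16 were higher and 0 lower at an unadjusted p below 0.05 in limma, and their median was 0.13.

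Of 39 tested genes of amino acid supply and the ATF4 response 4 rose (10.3%) and 1 fell (2.56%), with a median log2 difference of 0.33. Slc1a5, the main glutamine carrier, was at 2234 and 2189 against 654 and 657, 3.37-fold (adjusted p = 5.76e-06 in limma), and Chac1, which degrades glutathione, at 331 and 254 against 84.1 and 95.6. Trib3, a pseudokinase, gave 155 and 253 against 80.0 and 78, and without co-culture replicate 2 its log2 difference of 0.97 was no longer a call. The fall was that of Slc1a3, a glutamate carrier, at 60.9 and 44.7 against 108 and 125, and without the same array it was at -0.93 and the list had 0 falls. Among 25 genes of purine and NAD metabolism 3 rose and 2 fell. Ampd3, which deaminates AMP, was 3.97-fold higher, with 799.7 and 826 against 208 and 201. Naprt and Nampt, 2 of the genes whose enzymes lead into NAD, moved in opposite directions. Naprt, which uses nicotinic acid, was at 339.5 and 359.9 against 107 and 114. Nampt, which uses nicotinamide, was at 379.9 and 377 against 771 and 782. The other fall was that of Entpd5, whose call was lost without co-culture replicate 1 (-0.96). Under quantile normalization Nampt was at -0.97 and Entpd5 at -0.96, and the list had 0 falls.

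Of 27 tested genes of cholesterol synthesis and uptake 3 fell (11.1%) and 0 rose, with a median of -0.47. At an unadjusted p below 0.05 in limma 3 were higher and 21 lower. Sqle, squalene epoxidase, was at 915 and 933 against 1973 and 1958, 2.13-fold. Abca1, the exporter of cholesterol, had a log2 difference of 0.67 and was not called. Of 36 genes of the unfolded protein and heat shock responses 2 heat shock genes fell, Hspa1b and Hsph1, and 0 rose. That is 5.56% lower, against 2.97% over all genes tested. At an unadjusted p below 0.05 in limma 14 were higher and 10 lower. Hspa1b was at 365 and 375 against 889 and 808.

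Iron enters most cells through the transferrin receptor and leaves them through ferroportin. Tfrc, the transferrin receptor, was at 154 and 174 in co-culture and 584 and 611 in OP9 cells, 3.65-fold lower, and Slc40a1, the iron exporter ferroportin, at 225 and 235 against 925 and 879.7, 3.92-fold lower. Hmox1, which frees iron from heme, was 2.41-fold lower. Of 23 tested genes of metal handling 4 fell (17.4%) and 2 rose (8.7%), Slc39a14, a zinc and iron importer, and Cp, the ferroxidase ceruloplasmin. The rises of both were lost as calls with the mean of their probe sets, at 0.84 and 0.92 on the log2 scale.

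The circadian clock is a loop in which BMAL1 and CLOCK switch on their own repressors. Arntl, the BMAL1 gene of the positive arm, was at 108 and 119.5 in co-culture and 344 and 307 in OP9 cells, 2.86-fold lower (adjusted p = 2.26e-05 in limma). Dbp, an output gene driven by BMAL1, was at 1676 and 1729 against 636 and 625, 2.7-fold higher, and Nfil3, which represses the same sites, at 482 and 509 against 208 and 210.4. Of 15 tested members 3 rose and 1 fell, with a median of 0.45, and the repressor genes Per3 and Nr1d1 had log2 differences of 0.97 and 0.79 without a call. With the mean of its probe sets Arntl was at -0.68 and not called.

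Procr, the endothelial protein C receptor, was at 867 and 965 against 242 and 235, 3.83-fold higher, the 1 call among 11 coagulation genes (9.09%). Il1rn, the IL-1 receptor antagonist, was at 665 and 603 against 2449 and 2416, 3.84-fold lower, while C1s1 of complement was 3.83-fold higher. Of 12 imprinted growth genes 3 fell and 1 rose, led by Plagl1, a zinc finger factor of the imprinted network, with 422 and 417 against 2209.5 and 2344, and Mest with 954 and 928 against 3038 and 3169. Cd47, the signal that restrains phagocytes, was at 3942 and 3714 against 1230.3 and 1175, 3.18-fold higher, and Alcam, an adhesion molecule, 3.2-fold lower. Among 26 tested channels and pumps 4 rose (15.4%) and 3 fell (11.5%, or 1 gene with the mean of probe sets). The water channel Aqp1 was at 640.1 and 740.3 against 209 and 193 and Slc24a3, a sodium-calcium exchanger, at 309 and 300.4 against 839.9 and 948.

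Lysosome and autophagy genes gave 0 higher and 1 lower of 47, or 2.13% lower (7 higher and 20 lower at an unadjusted p below 0.05 in limma). Glycan enzymes gave 1 higher and 1 lower of 35, 2.86% each way. Both lists were near or below the background, since over all genes tested 2.71% rose and 2.97% fell. The falls of the amino acid list, 2.56%, were near it as well. No list was tested against the background, and several of the shares given above rest on very few genes. Chst1, a sulfotransferase, was at 899 and 894 against 232 and 243 and St6gal1, which caps glycans with sialic acid, at 555 and 537 against 1157 and 1201. Retinoid enzymes Dhrs3 and Rdh10 were 2.85- and 2.33-fold lower, and Cyp7b1, which hydroxylates oxysterols, was 2.61-fold higher. For Cyp7b1 and St6gal1 the mean of all probe sets gave 0.94 and -0.95 on the log2 scale, without a call.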

How the data were processed

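RNA of OP9 cells with or without 230-238 cells (2 arrays each) was measured on Affymetrix Mouse Genome arrays. The authors deposited normalized intensities on a linear scale, 1 value per probe set and array. RMA and dChip are named for the study, and the sources used here do not state which of them wrote these values.

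Intensities were taken to log2. Of 45101 probe sets, 34958 carried 1 gene symbol, 932 several and 9211 none, and 34754 matched a current gene number. For each of 18194 genes the probe set with the highest mean log2 value over all arrays was used, and 10084 genes reached 100 on at least 2 of the 8 arrays. Group means of all 8 arrays were fitted with limma 3.58.1 in R 4.3.3 (lmFit, eBayes, 4 residual degrees of freedom), with Benjamini-Hochberg adjustment over all genes tested. A call needed an adjusted p below 0.05 and a fold of 2. The script was tested on simulated data. Array number limits the precision, and the file gives no detection calls. Names, promoter windows and coordinates are from RefSeq (GRCm38.p6).

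The members and the 41 gene lists, 32 of them of functions, were chosen with earlier results of these data known, so no list is independent evidence of its direction. Named genes were the 12 largest calls in each direction outside the 4 lists set aside, up to 4 calls per direction in each function list, and every tested glucocorticoid and prostaglandin gene. Any other gene was chosen after its values were seen. Alternatives were other scalings, filters, pseudocounts, probe set rules and fits, and leaving out each array.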

Additional observations from a re-analysis of the deposited data

Results flagged for a closer look

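Probe sets with no gene symbol or several stood outside the comparison of named genes. Of 1690 such probe sets tested with limma, 43 were called higher and 42 lower in co-culture at the same limits. They carry signal that differed between the groups, and their genes are not named here.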

How the results depend on the processing

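The main counts of 273 genes higher and 299 lower moved within a factor of 1.5 under other scalings, filters, a pseudocount of 16, the 4 arrays alone, and the mean of probe sets. They were 412 and 507 with each probe set on its own, 1674 and 2640 with no minimum fold, and 38 and 25 with a minimum of 5-fold. Leaving out 1 array gave 265 to 280 higher and 277 to 307 lower. Quantile normalization gave 297 higher and 253 lower and moved the median of all genes from -0.05 to 0.01. With the replicate number as a block the counts were again 273 and 299, and the 2 numbers did not pair the arrays (correlation of the differences between replicates over genes 0.0305). Of 128 named genes called, 31 lost their call under at least 1 alternative, 16 of them when an array was left out, and 0 changed sign with a call. Genes that an alternative did not test are not counted as lost, which were 13 of the 128 with a filter at 200, 6 with the mean of probe sets and 6 without probe sets that can bind related transcripts. Of 64 counts of list members called, 2 moved by over 1.5 times under quantile normalization, 3 under median scaling and 19 when all probe sets of a gene were averaged. The cause was not tested. With 2 arrays a group, genes near 2-fold are the least certain, and levels below 100 lie close to background.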

Other observations

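Some called genes belong to none of the lists and were chosen after their values were seen. Socs3, which restrains cytokine receptors of the gp130 type, was at 2517 and 2925 in co-culture and 772 and 812 in OP9 cells, 3.43-fold higher, and Pim1, a survival kinase, at 253 and 220.0 against 74.6 and 55.2. The transcription factor genes Mycn, Gata3 and Ahr were 4.27-, 2.84- and 3.16-fold higher. Mfge8, which bridges dying cells to phagocytes, was at 7885 and 7564 against 1673 and 1712, Spns2, an exporter of sphingosine 1-phosphate, at 323 and 297 against 59.8 and 59.6, and Vegfc, a growth factor of lymph vessels, at 225 and 203 against 65.9 and 72.6.

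Other genes fell. Spry1, a feedback inhibitor of receptor tyrosine kinases, was at 410.4 and 448 in co-culture and 1474 and 1404 in OP9 cells, and Il17rd, also called Sef, at 106 and 111 against 480.2 and 515. Cav1, the coat protein of caveolae, was at 358 and 345 against 1666 and 1629, and Id1, a target of BMP signals, at 435 and 485 against 1888 and 1765. The guidance genes Sema3a and Sema3c were 3.53- and 4.14-fold lower. All of these differences were calls in limma.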
